A study of Mus musculus with 30 samples.

Results

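Heart and brain of untreated mice were compared by RNA levels on whole-genome arrays, to describe which genes set the 2 tissues apart in excitability, contraction, energy supply, paired isoforms and regulators. The arrays were those titled as heart or brain at time 0, which gave 3 heart arrays and 2 brain arrays of the 30 in the series, each from a sample labelled as a biological replicate. All 5 came from male C57BL/6 mice aged 8 to 10 weeks that had received no angiotensin II. Further arrays, from mice infused with angiotensin II (a peptide hormone that raises blood pressure) at 1500 ng per kg per minute from osmotic pumps for 3 or 7 days, held 3 heart and 2 brain arrays each and served as independent tissue comparisons. The labels do not say whether a heart and a brain came from the same mouse, whether the mice at day 0 carried pumps, which part of the brain was taken, or how many mice went into a sample. RNA of mixed cell types was measured, so fewer cells of a type and less RNA per cell cannot be told apart.

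Heart muscle contracts when an action potential opens L-type calcium channels in the surface membrane and the entering calcium releases more from the sarcoplasmic reticulum. That calcium binds troponin on the thin filament and lets myosin pull, and pumps then return it to the reticulum. The heart draws most of its ATP from mitochondrial oxidation of fatty acids, with creatine kinase carrying the high-energy phosphate to the filaments. Neurons carry action potentials on other sodium and potassium channels, turn them into transmitter release with a vesicle fusion apparatus, and are fuelled mainly by glucose. Many of the proteins involved exist in sister forms encoded by different genes, of which one is typical of striated muscle and another of nervous tissue.

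Levels are the deposited fluorescence intensities, and differences are given as heart minus brain on the log2(intensity + 16) scale with their standard errors, a scale on which weak genes look less changed than they are. A gene was called where the adjusted p of limma was under 0.05 and the difference was at least 1 in size, that is 2-fold. Each gene was read from a single probe set, and 14451 genes above a signal cut, which lay between 22.8 and 26.4 on the 5 arrays, on at least 2 of them were tested. Where a tissue was under this cut, the added 16 sets part of the size of the difference, so the order of such differences is not a measured ranking. Levels of different genes are not compared, since probe sets differ in brightness.

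The labels held on every array. The summed intensity of 8 cardiomyocyte markers was between 108872 and 111656 on the heart arrays and 799.7 and 830.5 on the brain arrays. The sum of 8 neuron markers was between 222 and 287 on the heart arrays and 41035 and 44763 on the brain arrays. The heart arrays were close replicates, with 25 to 57 genes differing by at least 1 log2 unit within a pair, whereas the 2 brain arrays differed by that much in 829 genes.

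The 2 brain arrays differed in markers of brain region and of other organs. Markers for this check were chosen after their values were seen. On brain replicate 1, forebrain genes were low: Camk2a, the kinase of forebrain excitatory synapses, had 338 against 6240 on brain replicate 2. Ddn had 33.4 on brain replicate 1 and 6322 on brain replicate 2. The cerebellar genes Gabra6 and Pcp2 were present on both, at 6708 and 8211 on replicate 1 and 2818 and 3070 on replicate 2. Brain replicate 1 also carried growth hormone of the pituitary (Gh, 5884 against 132 on replicate 2), albumin of the liver (Alb, 1686 against 20.8) and the kidney gene Kap (4031 against 33.0, with 21077 on both untreated kidney arrays). Heart replicate 1 had Kap at 807, against 14.9 and 14.1 on the other heart arrays. At the later days the make-up of the brain arrays differed again: the cerebellar gene Gabra6 was at 8.67 on brain replicate 1 of day 3, and the summed level of 7 choroid plexus markers was 238 and 2306 on the brain arrays of day 3 and 19095 and 1109 on those of day 7, against 20887 and 19805 at day 0. The part of these differences in each result was not tested, and results named as resting on 1 brain array are given with what leaving it out changed. Without brain replicate 1, 2114 genes were higher in heart and 2831 higher in brain, and without brain replicate 2 the counts were 1969 and 2896.

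**Figure D1:**
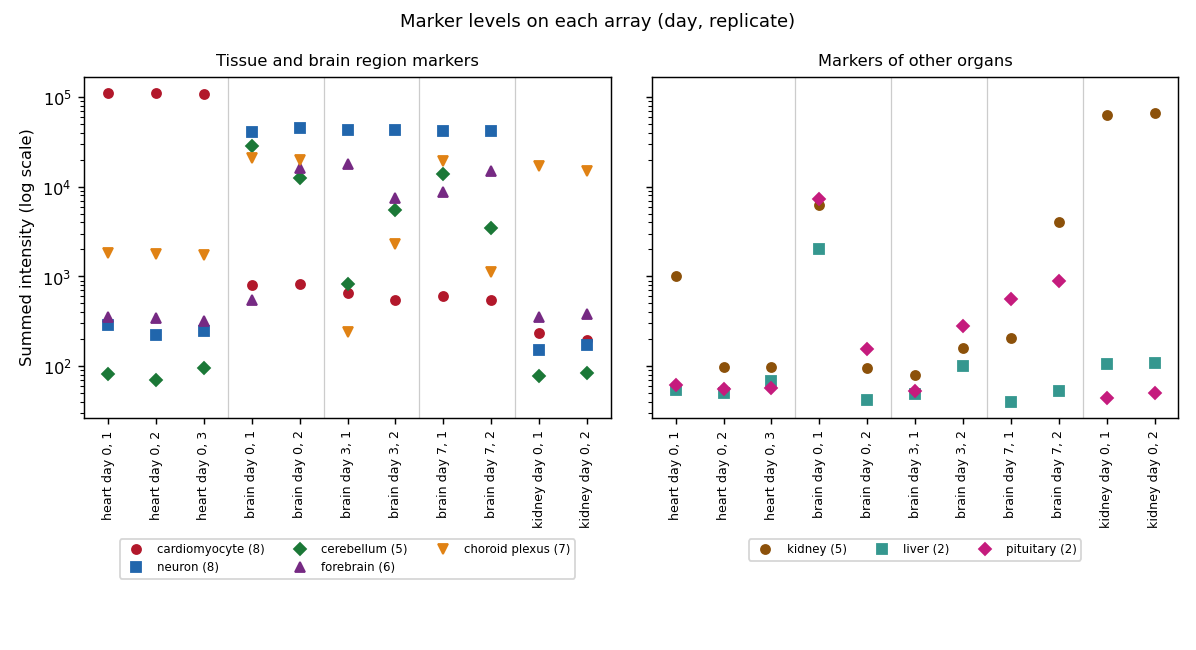
Summed intensity of marker genes (log axis) on each array, with untreated heart at the left, then brain at days 0, 3 and 7 and untreated kidney. Left, tissue and brain region markers. Right, markers of kidney, liver and pituitary, with the number of genes summed in brackets. Neuron markers are level across brain arrays, while forebrain, cerebellum, choroid plexus and other-organ markers vary between them.

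Of the genes tested, 2019 were higher in heart (14.0 percent) and 2781 were higher in brain (19.2 percent), 33.2 percent in all. Differences of at least 16-fold were called for 144 genes higher in heart and 353 higher in brain. Heart and brain arrays were without overlap in 2019 of the 2019 heart-high and 2780 of the 2781 brain-high genes. Such separation is therefore not particular to the genes named. Among the 15 largest heart-high differences were Myh6 (alpha myosin heavy chain), Myl3 (a myosin light chain), the atrial hormone gene Nppa, the mitochondrial creatine kinase Ckmt2 and the calcium pump inhibitor Pln. Among the 15 largest brain-high differences were the vesicle fusion gene Snap25, the neurofilament gene Nefl, the calcium buffer Calb1, the aldolase gene Aldoc and Ttr, the thyroid hormone carrier made by choroid plexus. In the arrays of other mice, 1748 of the 2019 heart-high genes and 2284 of the 2781 brain-high genes were called the same way at both day 3 and day 7.

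**Figure D2:**
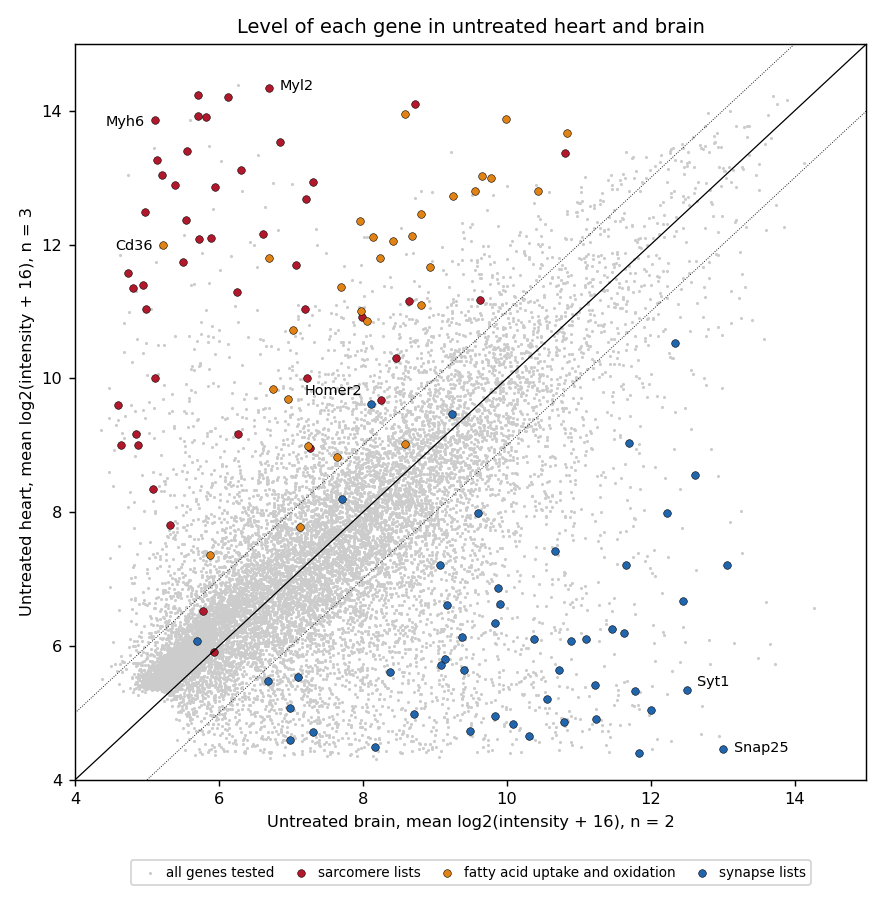
Mean log2(intensity + 16) of each tested gene in untreated heart (vertical axis, 3 arrays) and untreated brain (horizontal axis, 2 arrays). Grey points are all genes, coloured points are members of the sarcomere, fatty acid and synapse lists. The solid line marks equal levels and the dotted lines a 2-fold difference. Sarcomere genes lie above the upper dotted line with 2 exceptions inside the band, and most synapse genes lie below the lower one.

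Genes were grouped into 28 lists by function, of which 671 of 749 members were on the array and 644 were tested. Some members passed the signal filter only through the tissue where they are high, so list counts describe the members measured and are not a test of the list. Members passing through 1 tissue alone were 4 of 13 for thick filament, 3 of 13 for thin filament and 6 of 21 for Z disc. They were 10 of 30 for voltage-gated potassium channels, 8 of 24 for neuronal cytoskeleton and 8 of 37 for cardiac regulators. Both shares of called genes among all tested, 14.0 percent and 19.2 percent, are the background for these counts, and the median difference over all genes was 0.06.

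**Figure D3:**
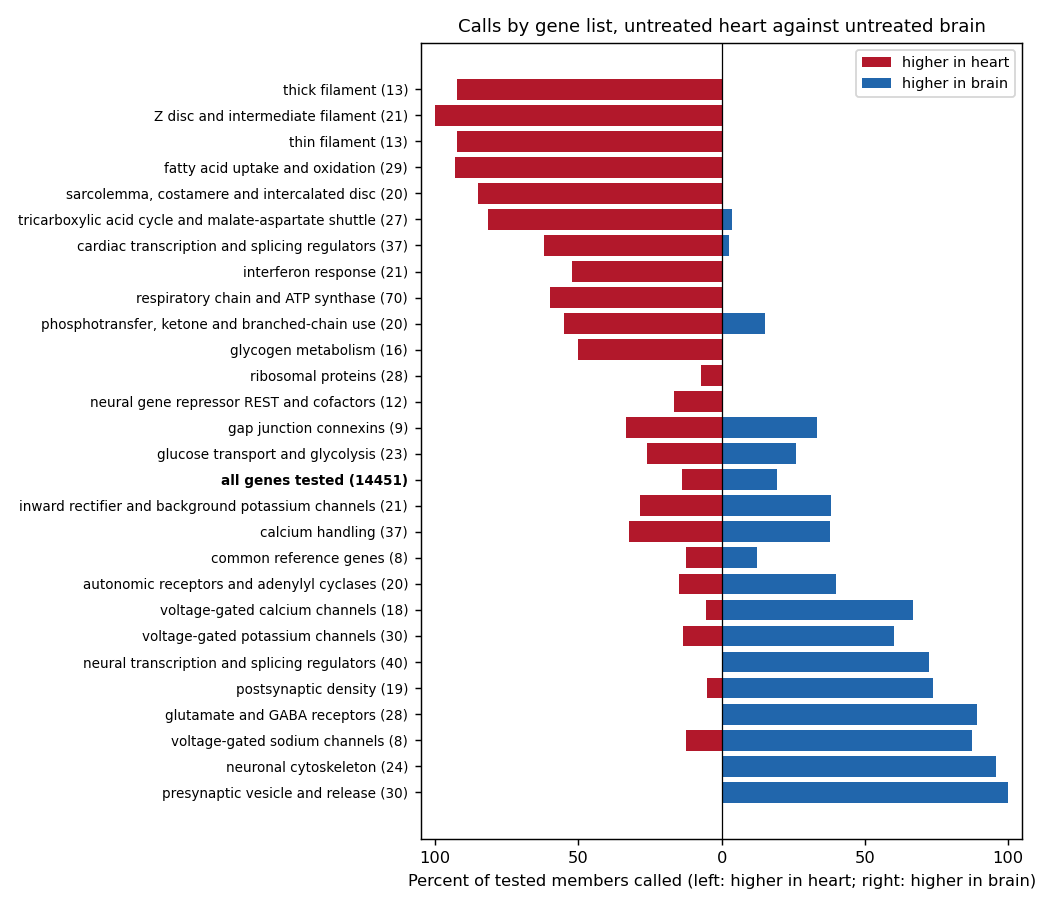
Percent of tested members called higher in heart (left) and higher in brain (right) for each gene list with at least 8 tested members, ordered by the list's median difference, with the number tested in brackets. The row for all genes tested is in bold. The sarcomere and fatty acid lists stand at the top and the presynaptic and cytoskeletal lists at the bottom.

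By median difference the thick filament, thin filament and Z disc lists were the most heart-biased. Some of their members passed the filter through a single tissue, so the value added before the log sets part of these medians. By share called, the fatty acid list was above the thick and thin filament lists, with 27 of 29 tested members higher in heart. None of its members passed the filter through a single tissue. In the thick filament list, which holds myosin and the proteins that order it, 12 of 13 tested members were higher in heart and none was higher in brain, with a median difference of 6.24. Myh6, the motor of the adult mouse ventricle, had intensities of 14177, 15525 and 14793 in heart, against 15.3 and 22.5 in brain, a difference of 8.74 ± 0.13 (adjusted p = 3.8e-07). Ttn, which encodes the spring protein titin, had 7831, 9036 and 8418 in heart, against 33.9 and 11.6 in brain, and the ventricular light chain Myl2 had 21429, 20975 and 19990.4 in heart, against 68.4 and 110.3 in brain. In each of these the lowest heart array was far above the highest brain array. Myh7, the slow beta myosin of the fetal mouse heart and named here after its values were seen, had 353, 540.1 and 578 in heart, against 88.8 and 211 in brain, a called but much smaller difference of 1.69 ± 0.36. Myh7b did not pass, at 0.74 ± 0.12.

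The thin filament list had 12 of 13 members higher in heart, with a median of 4.36. Its members included Tnnt2, which ties troponin to tropomyosin, at 8.21 ± 0.13, Tnni3, the inhibitory subunit, at 8.10 ± 0.11, and Actc1, cardiac actin, at 8.09 ± 0.18. Actc1 had 18182, 18424 and 20317 in heart, against 41.0 and 68.7 in brain. Tnni1, the inhibitory troponin of fetal heart and slow muscle, did not differ by the test (-0.02 ± 0.24). All 21 tested members of the Z disc and intermediate filament list, which anchors and joins the filaments, were higher in heart, with a median of 5.05. Myoz2, which binds calcineurin at the Z disc, had 10349, 9964 and 9204 in heart, against 16.1 and 22.7 in brain, and Csrp3, the muscle LIM protein, had 11487, 10787 and 10248 in heart, against 26.1 and 36.6 in brain. Both groups of arrays were tight and did not overlap. The list of sarcolemma, costamere and intercalated disc genes had 17 of 20 members higher in heart, among them the desmosome gene Dsp at 6.79 ± 0.15, the costamere gene Itgb1bp2 at 5.98 ± 0.12, the caveolin of muscle Cav3 at 4.92 ± 0.13 and the plakophilin gene Pkp2 at 4.86 ± 0.21. Dmd, the dystrophin gene, did not pass at 0.42 ± 0.17.

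Promoters of sarcomere genes are shown because their cardiac expression is known to depend in part on serum response factor, which binds the CArG box. Sequences are from RefSeq on the GRCm38.p6 build, 250 bases before to 50 bases after the gene start, read 5′ to 3′ on the gene's strand, and capitals mark a CArG box. The synaptic gene Syt1, of whose 2 listed promoters the first is shown, holds none.
Actc1, chr2:114052826-114053125, minus strand: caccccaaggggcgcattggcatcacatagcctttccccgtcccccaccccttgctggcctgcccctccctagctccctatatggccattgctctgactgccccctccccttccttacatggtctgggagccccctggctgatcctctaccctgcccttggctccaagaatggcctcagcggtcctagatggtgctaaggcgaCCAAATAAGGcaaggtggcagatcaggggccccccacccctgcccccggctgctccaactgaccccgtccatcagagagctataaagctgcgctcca
Myl3, chr9:110763428-110763727, plus strand: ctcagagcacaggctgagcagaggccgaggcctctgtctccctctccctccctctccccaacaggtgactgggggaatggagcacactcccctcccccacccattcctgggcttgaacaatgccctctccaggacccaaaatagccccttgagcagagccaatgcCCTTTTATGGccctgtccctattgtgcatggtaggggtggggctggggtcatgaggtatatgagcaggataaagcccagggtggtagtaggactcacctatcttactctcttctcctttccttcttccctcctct
Myl7, chr11:5898733-5899032, minus strand: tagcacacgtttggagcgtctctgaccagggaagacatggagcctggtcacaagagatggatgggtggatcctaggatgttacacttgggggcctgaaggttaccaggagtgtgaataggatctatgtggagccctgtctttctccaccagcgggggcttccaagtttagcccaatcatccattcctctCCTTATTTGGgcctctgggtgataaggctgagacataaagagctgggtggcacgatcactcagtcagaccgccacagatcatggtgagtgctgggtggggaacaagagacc
Syt1, chr10:109009062-109009361, minus strand: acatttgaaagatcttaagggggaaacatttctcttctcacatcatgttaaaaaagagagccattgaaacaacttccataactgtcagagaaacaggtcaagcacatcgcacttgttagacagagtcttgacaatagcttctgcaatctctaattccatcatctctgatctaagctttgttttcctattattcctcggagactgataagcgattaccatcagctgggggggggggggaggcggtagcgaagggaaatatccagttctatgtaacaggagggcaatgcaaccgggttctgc
The CArG box began 47 bases before the gene start in Actc1, 85 before it in Myl3 and 61 before it in Myl7. Promoters were found for 40 of the 47 tested sarcomere genes, 54 promoters in all. A CArG box on either strand was present in 11 of these 54 promoters (20.4 percent), which belong to 9 genes, against 1.64 percent of the 32544 promoters in the table. The share was 1 of 58 (1.72 percent) for synapse genes and 0 of 64 for respiratory chain genes. The MEF2 site was present in 9.26 percent of the sarcomere promoters and 1.86 percent of all. The GATA site was present in 18.5 percent of the sarcomere promoters, 17.2 percent of the synapse promoters and 11.2 percent of all, and the TATA box in 5.56 percent of the sarcomere promoters and 8.28 percent of all. The MCAT motif CATTCC was present on either strand in 33.3 percent of the sarcomere promoters and 14.6 percent of all. CpG pairs numbered 5.5 per sarcomere promoter by the median, 16.5 per fatty acid promoter, 19 per respiratory chain promoter and 7 per promoter over all. These matches describe the letters of the window and do not show binding.

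Calcium handling genes were split between the tissues: of 37 tested members 12 were higher in heart and 14 higher in brain. The heart-high members included genes of the sarcoplasmic reticulum. Pln, the inhibitor of the reticular pump, had 15106, 15127 and 14641 in heart, against 26.1 and 39.3 in brain, a difference of 8.28 ± 0.14. Trdn, which anchors the release channel to the luminal buffer, had 3427, 3746 and 3881 in heart, against 7.48 and 9.95 in brain, and the histidine-rich buffer gene Hrc had 4752, 4594 and 4227 in heart, against 25.5 and 34.5 in brain. In all 3 every heart array was above both brain arrays, as in every gene called higher in heart. The pump itself, Atp2a2, is used by both tissues and differed less, with 15679, 16381 and 16152 in heart, against 7653 and 6593 in brain (1.18 ± 0.12); it was named after its values were seen. The 14 brain-high members included cytosolic buffers, plasma membrane pumps, exchangers and CaM kinases. Among exchangers, Slc8a1 was called on only 1 of its 3 tested probe sets (-4.18, against 0.91 and -0.58), and Slc8a2 was not called (-0.12). Calb1, the calbindin of Purkinje and other neurons, had 7.91, 13.3 and 8.48 in heart, against 9187 and 4797 in brain. Pvalb, the parvalbumin of fast interneurons, had 66.3, 63.9 and 55.1 in heart, against 8136 and 3800.3 in brain, and the membrane pump Atp2b2 had 19.7, 25.0 and 26.7 in heart, against 3434 and 3946 in brain. Brain replicate 1 was the higher of the pair for Calb1 and Pvalb, and both brain arrays stood above all heart arrays. Calb1 also averaged 6847 on the untreated kidney arrays, and brain replicate 1 carried kidney transcripts. Their part in its Calb1 value was not tested.

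Voltage-gated sodium channels, which carry the upstroke of the action potential, were brain-high in 7 of 8 tested members, 6 of which passed the filter through brain alone. The alpha subunit Scn2a had 7.15, 7.40 and 6.22 in heart, against 2323 and 2996 in brain, and Scn8a of the axon initial segment had 11.2, 9.93 and 11.1 in heart, against 1688 and 1960.1 in brain. The exception was Scn7a, a sodium-sensing relative of these channels, with 367, 342 and 494 in heart, against 32.5 and 42.1 in brain, a difference of 2.96 ± 0.18 (adjusted p = 2.6e-05).

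Of 18 voltage-gated calcium channel subunits tested, 12 were higher in brain and 1 was higher in heart. That 1 was Cacna1c, the pore of the L-type channel that starts cardiac contraction, with 677, 725 and 549 in heart, against 92.2 and 120.2 in brain (2.45 ± 0.17). The brain-high subunits included the beta subunit Cacnb4, with 9.45, 10.2 and 11.6 in heart, against 1598 and 1641 in brain, and the alpha2delta subunit Cacna2d3, with 9.42, 12.0 and 9.99 in heart, against 336 and 673 in brain. Cacna1a, the P/Q-type pore of nerve terminals, was at -2.78. The 2 auxiliary subunits that partner Cacna1c in heart did not pass: Cacnb2 was at 0.38 ± 0.25 and Cacna2d1 at 0.53 ± 0.42, and Cacna2d1 was called at 1.30 when brain replicate 2 was left out.

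Voltage-gated potassium channels were higher in brain for 18 of 30 tested members and higher in heart for 4. Kcnc1, the fast delayed rectifier of interneurons, had 7.66, 7.18 and 8.50 in heart, against 3079.5 and 1151 in brain. Kcna1 and Kcna2, the axonal channels, were at -5.05 ± 0.26 and -4.72 ± 0.15. The heart-high members were Kcnq1, the pore of the slow delayed rectifier, with 177, 209 and 158 in heart, against 22.3 and 28.1 in brain (2.26 ± 0.15), its accessory subunit Kcne1 at 1.76 ± 0.27, the transient outward subunit Kcnip2 at 2.02 ± 0.71 and the atrial channel Kcna5 at 1.31 ± 0.41. Kcnip2 had 623, 672 and 581 in heart, against 45.2 and 392 in brain, and without brain replicate 1 its difference was 0.65 and that of Kcna5 0.71, both under the 2-fold line. The call for Kcnip2 was also lost when any 1 heart array was left out, and that for Kcna5 without heart replicate 1 or 2. Kcnq1 and Kcne1 were called the same way at both later days, whereas Kcnip2 and Kcna5 were not.

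Inward rectifier and background potassium channels were split, with 6 of 21 tested members higher in heart and 8 higher in brain. The pair that forms the vascular ATP-sensitive channel was heart-high: Abcc9, a sulfonylurea receptor subunit also used by cardiac channels, had 1596, 1825 and 1565 in heart, against 117 and 93.7 in brain, and its pore Kcnj8 had 712, 602 and 679 in heart, against 75.2 and 59.9 in brain. Kcnj11, the pore of the ventricular channel and named after its values were seen, had 539, 600.4 and 591 in heart, against 239.5 and 286 in brain (1.09 ± 0.13), and it was at 0.97 without brain replicate 1. Kcnj5, a subunit of the acetylcholine-gated atrial channel, was at 2.95 ± 0.17, and the background channel Kcnk3 at 2.16 ± 0.25. Among the brain-high members Kcnk1 had 26.4, 26.6 and 21.3 in heart, against 3549 and 2506 in brain, and Kcnj10, the channel with which astrocytes clear potassium, had 27.1, 24.1 and 16.6 in heart, against 2271 and 820.3 in brain. Kcnj2, Kcnj4 and Kcnj14 did not pass the signal filter. Neither of the 2 pacemaker channels tested was called: Hcn2 was at -0.64 ± 0.13 and Hcn3 at -0.31 ± 0.14.

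Gap junction genes divided evenly, with 3 of 9 tested members higher in each tissue. Gjc1, the connexin of early heart and conduction tissue, was at 1.69 ± 0.15, Gja3 at 1.36 ± 0.18 and the endothelial Gja4 at 1.28 ± 0.10, all higher in heart. Gjb6 and Gjb2 of astrocytes and meninges were at -4.40 ± 0.19 and -2.16 ± 0.31, and Gjc3 of oligodendrocytes at -2.46 ± 0.44. Gja1, which serves ventricular myocytes and astrocytes alike, did not differ by the test, with 4872, 5297 and 4984 in heart, against 4808 and 4367 in brain (0.14 ± 0.11).

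Receptors for glutamate and GABA were brain-high in 25 of 28 tested members and heart-high in none. Of the 28, 16 passed the filter through 1 tissue alone. Gabrb2, a subunit of the synaptic GABA receptor, had 5.68, 5.21 and 5.32 in heart, against 2686 and 2767 in brain, and the AMPA receptor subunit Gria1 had 13.6, 10.9 and 10.7 in heart, against 1702 and 1561 in brain. Gabra6, of cerebellar granule cells, was at -7.49 ± 0.33 and was not called at day 3, when brain replicate 1 had little cerebellar signal. Of 20 autonomic receptors, cyclases and their partners, 8 were higher in brain and 3 were higher in heart. The adenylyl cyclases differed by form: Adcy6 at 2.17 ± 0.16, Adcy7 at 1.57 ± 0.17 and Adcy4 at 1.37 ± 0.12 were heart-high, Adcy2, Adcy3 and Adcy8 were brain-high, and Adcy5, a main cardiac form, at -0.92 ± 0.44 and Adcy9 at -0.81 ± 0.20 were not called. Adcy1, the calmodulin-activated form, had 89.5, 97.9 and 96.2 in heart, against 4681 and 4461 in brain. With the mean of all probe sets the calls of Adcy3 (-0.49) and Adcy7 (0.80) were lost. Adcy3 was also lost with the probe set brightest over the compared arrays (-0.38). With 64 added before the log, the calls of Adcy8 (-0.91) and Adcy4 (0.82) were lost. Without brain replicate 1 the brain-high count of this list was 13, with Adcy5 at -1.74 and Adcy9 at -1.11 then called.

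All 30 tested genes of the presynaptic vesicle and release list were higher in brain, with a median of -5.05, and 12 of them passed the filter through brain alone. Snap25, a SNARE of the fusion machine, had 4.84, 6.89 and 6.47 in heart, against 7799 and 8666 in brain, a difference of -8.55 ± 0.12 (adjusted p = 3.8e-07). Gad1, which makes GABA, had 4.67, 5.26 and 5.57 in heart, against 3569 and 3702 in brain, and Syt1, the calcium sensor of release, had 22.4, 23.4 and 28.2 in heart, against 3639 and 9148 in brain. Brain replicate 2 was higher than replicate 1 for Syt1, and both stood above all heart arrays. The weakest was Slc17a7, a vesicular glutamate transporter, at -1.56 ± 0.32. Stx1a rests on brain replicate 2: it had 87.2, 82.5 and 79.7 in heart, against 178 and 4772 in brain (adjusted p = 0.046). Leaving out any 1 heart array ended the call for Stx1a. Without brain replicate 2 the count was 28, and the differences of Slc17a7 and Stx1a were both -0.97.

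The postsynaptic density list had 14 of 19 members higher in brain, among them the scaffold genes Dlgap1 at -5.26 ± 0.21 and Dlg2 at -4.88 ± 0.17. Homer2, a scaffold also found in muscle, was the only member higher in heart (1.503 ± 0.33), with 780.0, 862 and 681 in heart, against 167 and 405 in brain. It was not called when brain replicate 1 was left out. Nrgn, a calmodulin store of forebrain spines, had 28.7, 25.1 and 46.8 in heart, against 41.1 and 1911 in brain and did not pass (adjusted p = 0.1), while without brain replicate 1 it was called at -5.31. In the neuronal cytoskeleton list 23 of 24 members were higher in brain. Nefl had 8.09, 9.44 and 10.3 in heart, against 10129.6 and 6107 in brain, the kinesin Kif5c had 21.6, 34.9 and 29.6 in heart, against 6805 and 6884 in brain and the microtubule regulator Stmn3 had 48.9, 48.6 and 52.7 in heart, against 9959 and 8390.4 in brain. The exception was Dpysl3, at 0.41 ± 0.19.

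Genes of fuel oxidation were mostly higher in heart. Of 29 tested genes of fatty acid uptake and oxidation, 27 were higher in heart and none higher in brain, with a median of 3.25, and no member depended on a single tissue to pass the filter. Cd36, the fatty acid transporter of the surface membrane, had 4011, 4182 and 4019 in heart, against 31.4 and 13.6 in brain, a difference of 6.77 ± 0.20 (adjusted p = 1.3e-06). Lpl, the lipase that frees fatty acids in capillaries, had 15633, 16254 and 15646 in heart, against 358 and 377 in brain. Pdk4, the kinase that closes pyruvate dehydrogenase to glucose carbon, had 3374, 3621 and 3636 in heart, against 99.9 and 77.4 in brain. The thiolase gene Acaa2 was at 4.39 ± 0.11. These genes were high on all 3 heart arrays and low on both brain arrays. The 2 members not called were Cpt1a, the liver form of carnitine palmitoyltransferase, at 0.43 ± 0.15, and the transporter Slc27a1 at 0.65 ± 0.13. The muscle form Cpt1b was not analysed here.

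In the tricarboxylic acid cycle and malate-aspartate shuttle, 22 of 27 tested members were higher in heart, with a smaller median of 1.59. Idh2, the NADP-linked isocitrate dehydrogenase of mitochondria, stood apart with 4044, 4452 and 3690.2 in heart, against 146 and 149 in brain (4.63 ± 0.12). Slc25a13 at 3.39 ± 0.17, Suclg2 at 2.70 ± 0.13 and the oxoglutarate carrier Slc25a11 at 2.21 ± 0.14 followed. Suclg2 encodes the GTP-forming subunit of succinyl-CoA synthetase and Sucla2 the ATP-forming one, which was at 1.27 ± 0.16 and is named after its values were seen. Pcx, the pyruvate carboxylase of astrocytes, was the only member higher in brain (-1.12 ± 0.21), and it was not called when brain replicate 1 was left out.

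The respiratory chain and ATP synthase list showed a modest shift with 3 outliers. Of 70 tested members 42 were higher in heart and none higher in brain, the median was 1.08, and 68 had a positive difference. The 3 largest were the muscle forms of cytochrome c oxidase: Cox8b with 9961, 9534 and 9597 in heart, against 61.8 and 38.8 in brain, Cox6a2 with 10109, 10589 and 10355 in heart, against 41.7 and 136 in brain and Cox7a1 with 7849, 8196 and 7268 in heart, against 120.2 and 69.6 in brain. The next was Atp5g1, a gene of the ATP synthase rotor ring, at 2.51 ± 0.16. Many members lay near the 2-fold line, and the count was 31 without brain replicate 2 and 45 without brain replicate 1.

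Glucose transport and glycolysis did not lean to either tissue, with 6 of 23 tested members higher in each and a median of 0.07. The heart-high genes were Eno3, Pgam2, the insulin-responsive transporter Slc2a4, Hk2, the lactate transporter Slc16a1 and Ldha. The brain-high genes were Aldoc, Eno2, the neuronal transporter Slc2a3, Slc2a1 of the blood-brain barrier and glia, Pgam1 and Pfkp. Slc2a4 had 1986, 2266 and 1949 in heart, against 82.3 and 70.5 in brain, and Slc2a3 had 47.9, 64.03 and 138 in heart, against 2685 and 2959.8 in brain. Glycogen metabolism had 8 of 16 members higher in heart and none higher in brain, among them the muscle phosphorylase Pygm at 3.63 ± 0.30 and the primer protein gene Gyg at 2.28 ± 0.13. Of 20 genes of phosphotransfer, ketone and branched-chain use, 11 were higher in heart and 3 higher in brain. Mb, the oxygen-binding myoglobin, had 21639, 21274 and 21005 in heart, against 62.4 and 59.6 in brain (8.11 ± 0.10). Bcat1, the cytosolic branched-chain transaminase, was brain-high at -3.68 ± 0.33.

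Sister genes were compared as 44 pairs of a heart form and a brain form, as labelled for this comparison, of which 39 had both members tested. In 13 pairs the heart form was higher in heart and the brain form higher in brain, and in 12 of these the same held at both later days. The clearest were enzymes of energy transfer. Of the mitochondrial creatine kinases, Ckmt2 had 8136, 8672 and 8467 in heart, against 12.7 and 8.75 in brain, and Ckmt1 had 16.8, 12.8 and 14.4 in heart, against 903 and 399 in brain. Of the cytosolic ones, Ckm had 6543, 6012 and 5213 in heart, against 52.1 and 37.1 in brain, and Ckb had 417, 358 and 304 in heart, against 8503 and 7145 in brain. Each form was high on the arrays of its own tissue and low on those of the other.

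Of the enolases, Eno3 had 7634, 7336 and 6521 in heart, against 77.8 and 52.7 in brain (6.48 ± 0.17), and Eno2 had 10.8, 9.50 and 11.6 in heart, against 2927 and 2495 in brain (-6.67 ± 0.12), with all 3 heart values of Eno2 under the signal cut. The other pairs of this kind were phosphoglycerate mutase (Pgam2 5.92, Pgam1 -1.79), glucose transporter (Slc2a4 4.49, Slc2a3 -4.94), fatty acid-binding protein (Fabp3 3.88, Fabp7 -4.90), junctophilin (Jph2 4.47, Jph3 -3.28), adenylyl cyclase (Adcy6 2.17, Adcy1 -5.38), calcium channel pore (Cacna1c 2.45, Cacna1a -2.78), myosin heavy chain (Myh6 8.74, Myh10 -2.39), SNAP-25 family (Snap23 1.74, Snap25 -8.55), Elav RNA-binding protein (Elavl1 1.53, Elavl3 -4.96) and protein kinase A regulatory subunit (Prkar2a 1.001, Prkar2b -2.55). The last was the pair that did not hold at the later days, since Prkar2a was not called there, and its call at day 0 was also lost without heart replicate 1 or 2.

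In 9 pairs the heart form was higher in heart while the other form was not called. All 3 cytochrome c oxidase pairs were of this kind: Cox6a1, the form of most tissues, had 9733, 9667 and 9166 in heart, against 17885 and 17899.9 in brain, below the 2-fold line at -0.91 ± 0.10, and Cox7a2 and Cox8a were at 0.42 and -0.96. Hexokinase (Hk2 3.83, Hk1 -0.65), actin (Actc1 8.09, Actb -0.69), alpha-actinin (Actn2 6.20, Actn1 0.01), calcium release channel (Ryr2 2.75, Ryr3 0.20), monocarboxylate transporter (Slc16a1 2.12, Slc16a7 -0.11) and GATA factor (Gata4 2.74, Gata2 0.94) followed the same pattern. Cox8a at -1.07 and Gata2 at 1.01 crossed the 2-fold line without brain replicate 1.

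In 9 other pairs the brain form alone was called. Aldoc, the aldolase of astrocytes and Purkinje cells, had 38.2, 30.4 and 43.7 in heart, against 14627 and 12476 in brain, while Aldoa, the form of muscle and many tissues, had 6899, 7265 and 6752 in heart, against 6562 and 5843 in brain. The remaining pairs were dynamin (Dnm2 0.67, Dnm1 -5.43), kinesin heavy chain (Kif5b -0.86, Kif5a -6.75), calcium channel beta subunit (Cacnb2 0.38, Cacnb4 -5.95), alpha2delta subunit (Cacna2d1 0.53, Cacna2d3 -4.22), vesicle-associated membrane protein (Vamp3 0.57, Vamp2 -3.25), syntaxin (Stx4a 0.63, Stx1a -3.28), polypyrimidine tract-binding protein (Ptbp1 0.44, Ptbp2 -2.31) and phosphofructokinase (Pfkm 0.68, Pfkp -1.12). Here the difference lay in the neural form, and the form of wider use did not reach 2-fold, although Kif5b did at -1.11 without brain replicate 2. Pfkp was just under the line, at -0.997, without heart replicate 3.

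In the lactate dehydrogenase pair, Ldha was entered as the brain form for this comparison only. It was the only member called, and it was higher in heart. Ldhb, the heart form, had 8192, 8753 and 8499 in heart, against 6133 and 5203 in brain, and was not called at 0.58 ± 0.12. Ldha, which favours lactate production, had 3629, 3672 and 3358 in heart, against 1096 and 2035 in brain, higher in heart by 1.24 ± 0.25 (adjusted p = 0.0049), with the same call at days 3 and 7. Without brain replicate 1 that difference was 0.80, under the 2-fold line. Both glycogen phosphorylases were higher in heart: the muscle form Pygm had 2127, 2263 and 1808 in heart, against 223 and 101 in brain, and the brain form Pygb had 2364, 2538 and 2221 in heart, against 889 and 668 in brain. Both aspartate-glutamate carriers were too, Slc25a13 at 3.39 ± 0.17 and Slc25a12 at 1.13 ± 0.13, though Slc25a12 was not called at days 3 and 7 and its other tested probe set was called higher in brain (-1.001). Both plasma membrane calcium pumps were higher in brain, Atp2b1 at -2.23 ± 0.38 and Atp2b2 at -6.54 ± 0.13. The adenine nucleotide translocators (Slc25a4 0.90, Slc25a5 0.19), the muscleblind proteins (Mbnl1 0.26, Mbnl2 0.39) and the CaM kinases (Camk2d -0.41, Camk2a -2.71) had no called member. Other probe sets of Slc25a4 were called higher in heart (1.82) and higher in brain (-1.02). Another probe set of Camk2d was called higher in brain (-1.45), and its remaining tested probe sets were not called. Camk2a was called without brain replicate 1, where its difference was -4.78. Slc25a4 was called at 1.04 there.

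**Figure D4:**
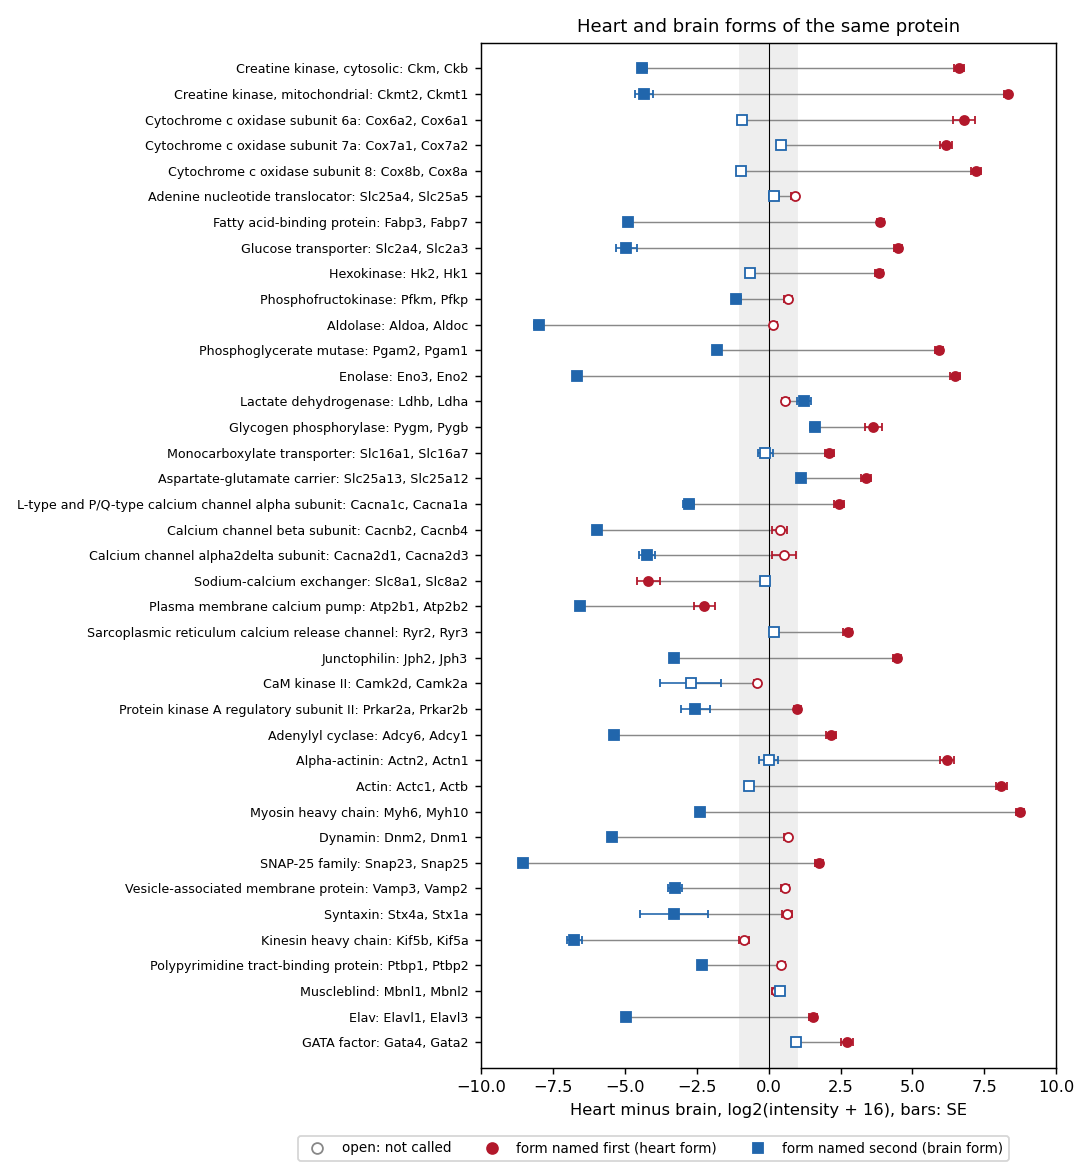
Heart minus brain difference on the log2(intensity + 16) scale for the 2 forms of 39 protein pairs, with the heart form as a red circle and the brain form as a blue square. Bars are standard errors, open symbols were not called, and the grey band is under 2-fold. Creatine kinase, enolase and phosphoglycerate mutase forms lie on opposite sides, and the heart form of the sodium-calcium exchanger lies on the brain side.

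The sodium-calcium exchanger Slc8a1, the main route of calcium out of the cardiac myocyte, was read as brain-high (-4.18 ± 0.40) from the probe set that was brightest over the 30 arrays, which had 13.8, 14.8 and 15.5 in heart, against 918 and 316 in brain. Its other 2 tested probe sets were not called: 1 had 57.4, 55.9 and 50.4 in heart, against 19.3 and 23.9 in brain, and the other had 224, 259 and 215 in heart, against 314 and 401 in brain. The 3 probe sets thus read -4.18, 0.91 and -0.58, and with the mean of its probe sets the pair had no called member.

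Other genes had probe sets with opposite calls. Of 6582 genes with several tested probe sets, 1684 had at least 2 called, and 46 (0.699 percent of the 6582) had 1 called higher in heart and another called higher in brain, where 30.5 percent of the 25509 probe sets were called either way. The following were named after their values were seen. Map4, a microtubule-associated protein with a muscle form, had 1 probe set with 677, 749 and 629 in heart, against 14.9 and 23.6 in brain, and another with 8.59, 8.60 and 7.97 in heart, against 973 and 1183 in brain. The differences were 4.32 and -5.48, while the brightest probe set of Map4 was not called (-0.74). Asph encodes an enzyme and, through shorter forms, the junctional protein junctin of the sarcoplasmic reticulum. Its 6 tested probe sets ran from -4.02 to 3.08, with 3 called higher in heart and 1 called higher in brain. Qk, an RNA-binding splicing regulator of muscle and glia, had 4 probe sets called higher in heart and 1 called higher in brain. Idh3b, a subunit of the NAD-linked isocitrate dehydrogenase, had values of 1.77 and -2.74 on either side of an uncalled probe set. Elavl1 had 1 probe set called higher in heart (1.53) and 2 called higher in brain (-1.14 and -2.57), so its place among the opposed pairs holds for its brightest probe set.

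**Figure D5:**
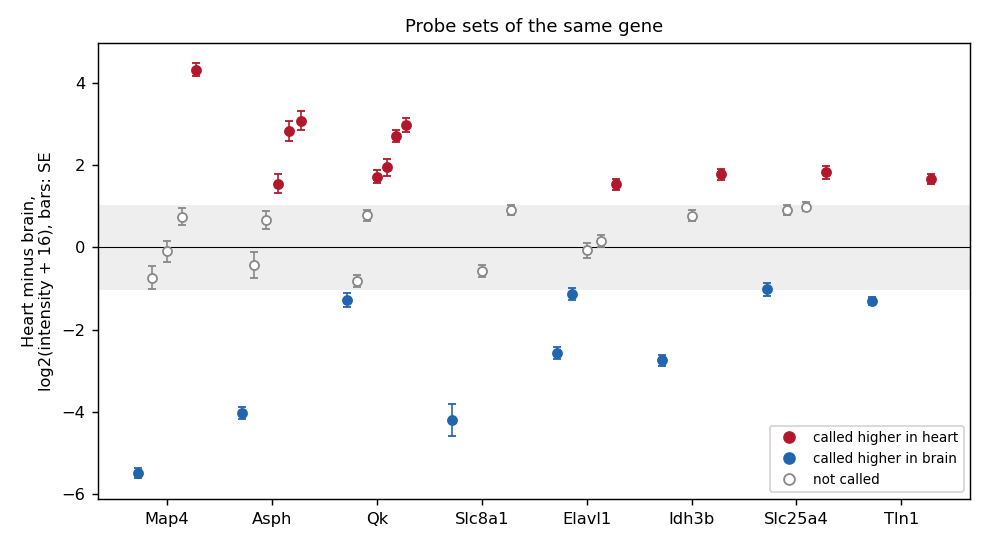
Heart minus brain difference on the log2(intensity + 16) scale for each tested probe set of 8 genes, with standard errors. Red marks a probe set called higher in heart, blue one called higher in brain and open grey one not called. Map4 has probe sets at 4.32 and -5.48, Asph at 3.08 and -4.02, and Slc8a1 is called on only 1 of 3.

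Among the cardiac transcription and splicing regulators 23 of 37 tested members were higher in heart and 1 was higher in brain. The core cardiac factors were called: Tbx20 had 642, 748 and 613 in heart, against 6.22 and 5.95 in brain, Hand2 had 853, 689.7 and 521 in heart, against 9.31 and 10.5 in brain, and Gata6 had 658, 729 and 602 in heart, against 17.0 and 13.9 in brain. Nkx2-5 had 228, 219 and 193 in heart, against 25.9 and 27.3 in brain, a difference of 2.43 ± 0.12, and the differences of Tbx5 and Gata4 were 2.26 ± 0.15 and 2.74 ± 0.21. Myocd, the coactivator of serum response factor, had 543, 521 and 316 in heart, against 18.7 and 22.5 in brain (3.66 ± 0.24), while Srf itself differed by 1.34 ± 0.22 and was not called at day 3. The methyltransferase gene Smyd1 was at 4.74 ± 0.13, and the splicing regulators Rbm20, which acts on titin, Rbm24 and Rbpms were at 3.60 ± 0.16, 3.44 ± 0.32 and 4.47 ± 0.11. The regulators of oxidative genes were called with smaller differences: Ppara at 3.29 ± 0.15, Ppargc1a at 1.93 ± 0.13 and Esrra at 1.27 ± 0.16. Iroquois genes Irx3, Irx4 and Irx5 were at 2.81 ± 0.56, 2.15 ± 0.12 and 1.96 ± 0.47, and Tead1, which binds the MCAT motif, at 2.51 ± 0.12. The remaining heart-high members were Meox2, Heyl, Hopx and Esrrb. Isl1, a factor of cardiac progenitors and also of some neurons, was higher in brain at -1.39 ± 0.40, with 12.6, 14.0 and 12.8 in heart, against 29.3 and 113 in brain, and that call was lost when any 1 heart array was left out (-1.42 to -1.38), or brain replicate 2 (-0.64). The MEF2 genes Mef2a, Mef2c and Mef2d were not called, at 0.37, -0.53 and -0.75. Mef2c had 651, 789.8 and 784 in heart, against 287 and 3921 in brain, so that its difference was -2.38 without brain replicate 1 and 1.32 without brain replicate 2, both past the test. Mef2d would have been called at -1.11 without brain replicate 1, and Hopx was lost at 0.80 without brain replicate 2. Leaving out brain replicate 1 gave 3 brain-high members, and leaving out brain replicate 2 gave 2.

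Neural regulators were brain-high in 29 of 40 tested members and heart-high in none, and 19 of the 40 passed the filter through brain alone. Rbfox3, the nuclear marker NeuN of mature neurons, had 42.7, 36.6 and 42.5 in heart, against 10657 and 12354 in brain, and Zic1, of cerebellum and other regions, had 5.77, 6.29 and 5.91 in heart, against 4991 and 3413 in brain. The RNA-binding genes Celf4 at -6.67 ± 0.21, Elavl2 at -5.65 ± 0.10, Elavl4 at -5.16 ± 0.11 and Elavl3 at -4.96 ± 0.11 were called, as were Nova1 at -3.88 ± 0.28 and Ptbp2 at -2.31 ± 0.15. Factors of neuronal lineage included Neurod1 at -6.59 ± 0.28, Myt1l at -3.54 ± 0.33 and Pax6 at -3.42 ± 0.29 (-0.73 and not called with the mean of its probe sets), and those of glia Olig1 at -5.56 ± 0.22 and Sox2 at -4.15 ± 0.12. Rbfox1, which also splices muscle transcripts, was present in heart too, with 376, 388 and 322 in heart, against 2197 and 2893 in brain. Bcl11b, of cortical and striatal neurons, was far higher on brain replicate 2, with 47.5, 50.1 and 29.9 in heart, against 108 and 1472 in brain (-2.89 ± 0.93). Its difference was -4.69 without brain replicate 1 and -1.10 without brain replicate 2, and without any 1 heart array it stayed between -2.99 and -2.73 while the adjusted p of limma was 0.074 to 0.108. Egr3, an activity-induced gene, was not called, with 22.6, 26.5 and 39.1 in heart, against 25.6 and 2013 in brain, and without brain replicate 1 its difference was -5.50 and called.

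REST represses neuronal genes outside the nervous system. Of the 12 genes of REST and its cofactors, 2 were higher in heart: Rest, with 232, 188 and 196 in heart, against 89.7 and 70.4 in brain (1.20 ± 0.15), and the phosphatase gene Ctdsp1, with 716, 769.6 and 682 in heart, against 279 and 245 in brain (1.41 ± 0.12). None was higher in brain, and the corepressor gene Rcor1 was at -0.10 ± 0.14. The call for Rest was lost with the mean of its probe sets (0.53) and with 64 added before the log (0.90), and the list then had 1 member higher in heart. Without brain replicate 1 the counts were 3 higher in heart and 1 higher in brain.

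Genes of general use gave a measure of the scale between the tissues. Of 28 tested ribosomal protein genes 2 were higher in heart, Rplp0 at 1.23 ± 0.10 and Rpl22 at 1.10 ± 0.13 (0.96 and not called without brain replicate 1), and the median was 0.21. Of 8 common reference genes, B2m was higher in heart at 1.93 ± 0.12 and Ywhaz higher in brain at -1.995 ± 0.19, while Actb was at -0.69, Pgk1 at 0.07 and Tbp at -0.22. Centring on the median of 8262 genes with clear signal on all 5 arrays moved every difference by 0.11 upwards.

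Other cell types also differed. Endothelial markers were higher in heart for 8 of 9 tested, with Emcn at 3.06 ± 0.12 and Kdr at 2.55 ± 0.11, while Cldn5, a tight junction gene of the blood-brain barrier, was at -0.82 ± 0.20 and was not called. Fibroblast markers were higher in heart for 5 of 8, with Dcn at 3.97 ± 0.14 and Postn at 4.11 ± 0.42, and macrophage markers for 6 of 6, with Lyz2 at 3.26 ± 0.51. Astrocyte markers were higher in brain for 7 of 8 and oligodendrocyte markers for 7 of 7, with Slc1a2 at -7.11 ± 0.19 and Mbp at -7.64 ± 0.21. Of 5 microglia markers only P2ry12 was called, higher in brain at -1.56 ± 0.18, and without brain replicate 2 a further 2 were higher in heart. Atrial markers were higher in heart for 5 of 8, while Bmp10 at 0.59, Dkk3 at -0.08 and Stk39 at -0.17 were not called. Nppa had 11397, 12606 and 9476 in heart, against 17.5 and 18.7 in brain, and Myl7 had 6238, 6593 and 4553 in heart, against 14.0 and 17.1 in brain. Of 9 skeletal muscle markers 6 did not pass the signal filter and none of the other 3 was called. The adipocyte fatty acid-binding protein Fabp4, which capillary endothelium of heart also makes, was at 7.63 ± 0.27, and the adipocyte hormone Adipoq at 2.23 ± 0.17.

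Interferon response genes were higher in heart for 11 of 21 tested and higher in brain for none, with a median of 1.33. The 3 heart arrays were uneven: Ifi27l2a had 4459, 1375 and 1696 in heart, against 251 and 132 in brain, and Rtp4 had 2305, 608 and 553 in heart, against 323 and 131 in brain, so heart replicate 1 was highest in both. Without heart replicate 1 the count was 9, and without brain replicate 2 Rtp4 was not called.

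The tissue differences held on the later arrays, which share no sample with day 0. At day 3, 2206 genes were higher in heart (15.2 percent) and 2715 higher in brain (18.7 percent), and at day 7 the counts were 2148 (14.9 percent) and 2661 (18.4 percent). All 12 called thick filament genes, all 27 called fatty acid genes and all 30 presynaptic genes were called the same way at both later days. The same held for 34 of 42 called respiratory chain genes and 9 of 11 called interferon response genes. The 6 choroid plexus markers called higher in brain at day 0 included none that was called so at both later days, where choroid plexus signal was low on 3 of 4 brain arrays. Only 2 genes were called in the opposite direction at day 3, Ecrg4 and Stk17b, and none at day 7. Ecrg4 is itself expressed in choroid plexus and was at -1.11 ± 0.19 at day 0 and 1.14 at day 3. Its call at day 0 was lost without brain replicate 1 or heart replicate 2, and that of Stk17b without brain replicate 1.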

How the data were processed

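RNA from tissue was hybridised to Affymetrix mouse arrays. The deposited intensity per probe set was made with Expression Console software (Affymetrix), per the submitters' processing notes. The algorithm used in that software is not given in the sources used here. Of 45101 probe sets, 64 controls were left out and 34945 carried 1 gene symbol in the platform annotation. A gene was read from the probe set that averaged highest across the 30 arrays. Genes above the 40th percentile of their array (22.8 to 26.4) on at least 2 of 5 arrays were tested on log2(intensity + 16), computed here from the deposited values, with limma 3.58.1 in R 4.3.3 and Benjamini-Hochberg adjustment. P-values measure only the spread between these 5 samples, and the number of arrays limits the precision. The fit was tested on simulated data. Heart and brain share replicate numbers, and deviations of numbers 1 and 2 correlated by 0.05 over 14451 genes. The brain arrays differed in region and other-organ markers, so this value cannot show whether mice were shared. No pairing was used, since the labels state none. Members and lists were chosen with earlier results of these data known. Genes were named from the 15 largest differences each way, the isoform pairs with both forms tested and the called regulators. Up to 4 called members per list and direction, and members against their list's direction, were named too. Some genes of the largest differences and some called neural regulators are left unnamed. Uncalled members and others named beside them were chosen after their values were seen. Promoters are from RefSeq.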

Additional observations from a re-analysis of the deposited data

Results flagged for a closer look

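For 2 genes of the lists described here the heart minus brain difference changed between day 0 and a later day, by a test of that change itself, which was added after the data were seen. Ankrd1, a stress-responsive cardiac protein of the Z disc, had a difference of 6.55 at day 0, and it was larger by 1.43 ± 0.17 at day 3 (adjusted p = 0.044) and by 1.34 ± 0.16 at day 7 (adjusted p = 0.0153) on the log2 scale with limma. Kcne2, a potassium channel subunit that is abundant in choroid plexus, was at -2.25 at day 0, and the change at day 3 was 2.32 ± 0.21 (adjusted p = 0.0054). The choroid plexus marker sum was 238 and 2306 on the brain arrays of day 3, against 20887 and 19805 at day 0, and its part in the Kcne2 value was not tested. Over all genes, 4 of 14725 changed by adjusted p at day 3 and 12 of 14680 at day 7, against 1270 and 1706 by unadjusted p.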

How the results depend on the processing

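The counts of called genes (2019 higher in heart, 2781 higher in brain) stayed within 1.5 times of these values under every alternative tried. They were 2336 and 3068 with 1 added before the log in place of 16, 1529 and 2163 with 64 added, 2393 and 2415 after quantile normalization, 2243 and 2527 after median centring, and 1601 and 2090 with the mean of all probe sets. With the replicate number as a block, a pairing that the labels do not state, they were 2066 and 2717. Leaving out each array in turn gave 1937 to 2114 higher in heart and 2672 to 2896 higher in brain. Opposite isoform pairs numbered 12 to 15 over all settings, and 12 to 14 with 1 array left out. The genes with opposed probe sets were 46, against 77 with 1 added and 29 with 64 added. Of 187 called genes named in the text, 151 stayed called the same way under every alternative, and 44 of 56 list counts stayed within 1.5 times. Elavl1 turned to -0.35 with the mean of its probe sets. Ryr3, not called, was at -1.07 with the probe set brightest over the compared arrays, and Mef2c was at -2.38 without brain replicate 1 and 1.32 without brain replicate 2. The cause was not tested. With the mean of all probe sets the calls of Homer2, Kcnip2, Pax6, Rest, Slc25a12, Slc8a1 and Sucla2 were among those lost.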
